A study of Homo sapiens with 6 samples.

Results

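The genes described here are 47 genes of DNA replication and S phase, measured in human lung fibroblasts in which TAZ was silenced. They were chosen by name for their function: the subunits of the replicative helicase, the factors that load and activate it, the proteins that synthesize DNA at the fork, and the enzymes, chaperones, checkpoint and repair proteins and regulators that go with them. Of the 47 genes, 38 are also in the 43-gene S phase list of the Seurat package. All 47 were found among the 23355 entries with a gene symbol, and all 47 passed edgeR's filter on low counts, which left 14053 genes to be tested. The lowest count of any of them in any library was 58, for PRIM1.

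The cells were HFL-1 fibroblasts, an established line from the lung of a human fetus. They were transfected with a non-targeting siRNA (siNTC), with the TAZ siRNA siTAZ #1 or with the TAZ siRNA siTAZ #2, and RNA was taken 48 h later and sequenced in 2 libraries per group, 6 in all. The comparison asks which genes depend on TAZ in lung fibroblasts. No group had any further treatment in the labels. All cells are of a single line and the knockdown was transient. The study's methods give duplicate transfections for each TAZ siRNA, and how the siNTC pair was made is not given in the sources used here. The p-values measure the spread between these libraries only, which may be technical.

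Each library held between 15648055 and 32078188 counts. The level of a gene is given in CPM, its counts relative to the sum of the library, scaled by TMM, a method that sets libraries to a common size. A log2 fold change is the difference between groups on the log2 scale, with its standard error (SE), and a gene is said to have risen or fallen where its p-value, adjusted over all genes tested, gave a false discovery rate (FDR) under 0.05. The TAZ gene, WWTR1, was at 132 and 131 CPM in the siNTC libraries, 26.4 and 28.4 with siTAZ #1, and 46.1 and 43.1 with siTAZ #2. It fell by 2.26 on the log2 scale with siTAZ #1 (SE 0.10, FDR 0.00062) and by 1.56 with siTAZ #2 (SE 0.10, FDR 0.00068). The siRNAs also differed from each other in it, with less left under siTAZ #1 (log2 difference -0.70, SE 0.10, FDR 0.005).

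In siTAZ #1 replicate 2, the counts were nearly missing from RANGAP1 on chromosome 22 to the end of Y. That stretch held 0.246% of the counts of this library against 3.58% to 3.74% in the others. It holds 576 of the genes tested but none of the 47. The estimate of the spread shared by all genes was larger with the stretch (common dispersion 0.0807) than without it (0.0163), so counts are also given from a fit without the genes of this stretch. The 8 fibroblast markers examined, among them COL1A1 and VIM, summed to 34431 and 34566 CPM in the siNTC libraries, 22680 and 21750 in those of siTAZ #1 and 26708 and 28396 in those of siTAZ #2, with none at 0. Epithelial, endothelial and leukocyte markers each summed to at most 3.38 CPM.

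A chromosome is copied once per cell cycle. In G1 the MCM helicase is loaded onto origins, at the start of S phase it is activated, and the forks then need primase, polymerases, a sliding clamp, nucleotides and fresh histones, while checkpoint and repair proteins watch over stalled forks. Most of these genes are transcribed periodically at the border of G1 and S by E2F factors, which bind sites such as TTTCCCGC and TTTGGCGC near the start of transcription. In bulk RNA, fewer cells in S phase and less of these RNAs per cell cannot be told apart.

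The promoters of some of the genes that the results turn on show these sites. RefSeq promoter sequences (GRCh38.p14, 250 bases before to 50 after the start of a gene) were given for 38 of the 47 genes, and each was matched to GRCh37, from which the positions are taken. A stretch of 60 bases upstream of the start is shown for each gene, 5′ to 3′ on the strand of the gene, with E2F sites in capitals. MCM3, MCM6 and DTL stand for genes that fell with siTAZ #2 and not with siTAZ #1, PCNA for those that rose with siTAZ #1, GINS2 is the gene that fell with both, E2F1 and UHRF1 were called with neither, and GMNN, which fell with siTAZ #2, has none of the sites searched. In MCM6 a pair of sites overlap on opposite strands.
MCM3 (chr6:52149681-52149740, minus strand): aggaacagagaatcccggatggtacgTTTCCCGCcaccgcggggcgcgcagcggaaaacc
MCM6 (chr2:136634132-136634191, minus strand): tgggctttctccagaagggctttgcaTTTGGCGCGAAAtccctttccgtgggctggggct
DTL (chr1:212209030-212209089, plus strand): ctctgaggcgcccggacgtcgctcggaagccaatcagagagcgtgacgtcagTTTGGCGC
PCNA (chr20:5107294-5107353, minus strand): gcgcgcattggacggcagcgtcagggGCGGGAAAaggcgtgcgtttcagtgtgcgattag
GINS2 (chr16:85722561-85722620, minus strand): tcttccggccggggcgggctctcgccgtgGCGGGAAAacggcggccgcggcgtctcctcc
E2F1 (chr20:32274192-32274251, minus strand): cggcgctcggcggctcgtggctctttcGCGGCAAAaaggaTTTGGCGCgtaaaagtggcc
UHRF1 (chr19:4909453-4909512, plus strand): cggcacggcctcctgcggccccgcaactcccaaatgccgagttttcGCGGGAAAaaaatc
GMNN (chr6:24775105-24775164, plus strand): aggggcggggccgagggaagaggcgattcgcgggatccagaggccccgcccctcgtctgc

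The siRNAs moved these genes differently. With siTAZ #2, 25 of the 47 genes fell and 0 rose, and the median log2 fold change over the 47 was -0.63. With siTAZ #1, 2 fell (GINS2 and UNG) and 6 rose (GINS1, POLD3, PCNA, MLF1IP, WDR76 and CCNE2), and the median was 0.25. The median over all genes tested was 0.01 with siTAZ #2 and 0.02 with siTAZ #1. The comparisons share the siNTC libraries, so they are not independent of each other.

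Among all genes tested, 14.4% fell and 14.1% rose with siTAZ #2, and 9.78% fell and 10.8% rose with siTAZ #1. The 25 genes that fell with siTAZ #2 are 53.2% of the 47, well over that background, and the 6 that rose with siTAZ #1 are 12.8%, close to it. At an unadjusted p under 0.05, 0 of the 47 were higher with siTAZ #2, and DESeq2 and edgeR's exact test also called 0. DESeq2 called 30 falls with siTAZ #2 and the exact test called 32, with no share of all genes beside them. Without the genes of the stretch with missing counts, 30 of the 47 fell with siTAZ #2 beside 19.3% of all genes, and 11 rose with siTAZ #1 beside 15.7% of all genes. The genes added were RFC2, RFC4, CHAF1A, NASP and EXO1 among the falls, and GMNN, NASP, CLSPN, USP1 and E2F8 among the rises. Calls given by gene are from the fit with all genes unless stated. The fits below with a library left out keep that stretch, and no share of all genes called stands beside their counts. Where an FDR is given for such fits, it is the highest of them, and the lower ones are not printed. The count of 25 dropped to 11 or 9 when siNTC replicate 1 or 2 was left out and to 14 or 12 when siTAZ #2 replicate 1 or 2 was, and it was 31 without either siTAZ #1 library. The count of 6 dropped to 1 without either siNTC library and to 3 without either siTAZ #2 library, and was 12 without siTAZ #1 replicate 1. The falls with siTAZ #1, of which there were 2, dropped to 0 without either siNTC library and to 1 without either siTAZ #2 library, and were 4 without siTAZ #1 replicate 1.

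Both siTAZ #2 libraries were below both siNTC libraries for 41 genes (87.2%, beside 35.5% of all genes tested) and above both for 2, UNG and CCNE2 (beside 36.0% of all genes). Both siTAZ #1 libraries were above both siNTC libraries for 27 genes (57.4%, beside 33.2%) and below both for 7 (beside 31.1%). Summed over the 47 genes, the level was 2934 and 3012 CPM with siNTC, 3318 and 3354 with siTAZ #1, and 2040 and 1969 with siTAZ #2, so the groups did not overlap in this sum.

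**Figure D1:**
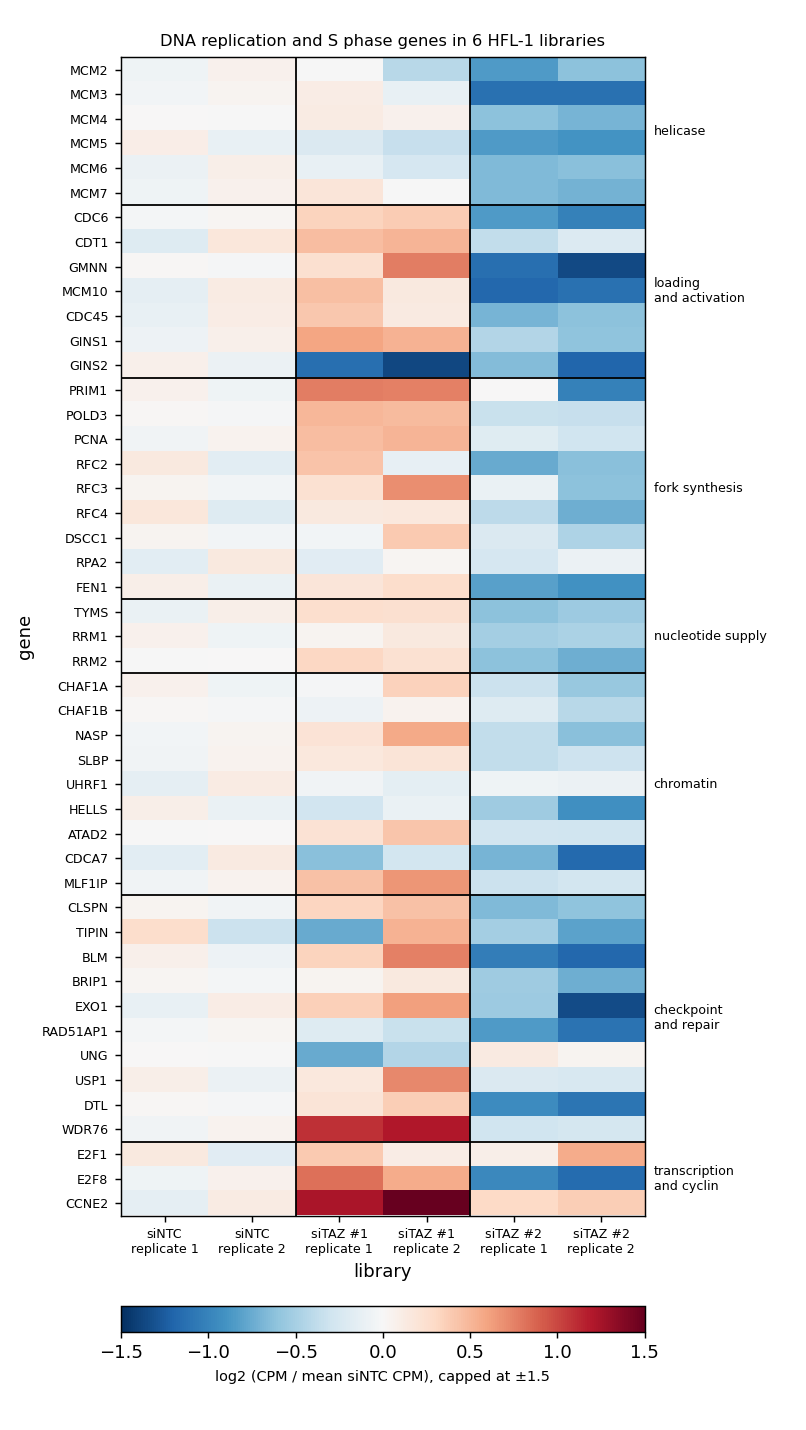
Level of each of the 47 genes (rows, by functional group) in each of the 6 libraries (columns), as log2 of CPM over the mean CPM of the siNTC libraries, with red above and blue below and the scale capped at ±1.5. The siTAZ #2 columns are mostly blue, with library medians of -0.53 and -0.62, and the siTAZ #1 columns are mostly pale red, with medians of 0.19 and 0.24.

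The siRNAs were also compared directly. Of the 47 genes, 35 were higher with siTAZ #1 than with siTAZ #2 and 1 (UNG) was lower, with a median log2 difference of 0.77 against -0.01 over all genes. In the background 15.2% of all genes were higher and 13.4% lower in this comparison, while 35 of 47 is 74.5%. With the genes of that stretch left out, 38 were higher beside 19.4% of all genes, with MCM2, RFC3 and HELLS added. The count of 35 dropped to 23 or 20 when siTAZ #2 replicate 1 or 2 was left out, and edgeR's exact test on the 4 libraries gave 15. Among the differences which that test did not call were those in MCM4, MCM7, POLD3, PCNA, RRM1 and MLF1IP, which passed with any one library left out. Both siTAZ #1 libraries were above both siTAZ #2 libraries for 41 of the 47 genes beside 32.6% of all genes, and below both for 1 beside 33.0%. Against siNTC, 23 genes fell with siTAZ #2 and were not called with siTAZ #1, 5 rose with siTAZ #1 and were not called with siTAZ #2, and 16 were called with neither. GINS1 was the gene that rose with siTAZ #1 and fell with siTAZ #2.

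MCM2 to MCM7 form the ring of the replicative helicase, which unwinds the DNA ahead of the polymerases. All 6 fell with siTAZ #2 (median log2 fold change -0.71), while none was called with siTAZ #1 (median -0.09, from -0.28 to 0.10). MCM3 was at 182 and 192 CPM with siNTC, 201 and 172 with siTAZ #1, and 86 and 85.8 with siTAZ #2. Both siTAZ #2 libraries were thus far below the other 4, which overlapped. MCM3 fell by 1.12 with siTAZ #2 (SE 0.10, FDR 0.0013), to a fold of 0.46, and its log2 fold change with siTAZ #1 was 0.001 (SE 0.10, FDR 0.99).

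MCM4 was at 178 and 177 CPM with siNTC, 194 and 186 with siTAZ #1, and 116 and 109 with siTAZ #2. MCM5 was at 130 and 112 CPM with siNTC, 104 and 95.2 with siTAZ #1, and 67.2 and 64.8 with siTAZ #2. In MCM5 both siTAZ #1 libraries lay between the groups, below siNTC without passing the test (log2 fold change -0.28, FDR 0.12). MCM4 fell by 0.66 (SE 0.08, FDR 0.0029) and MCM5 by 0.87 (SE 0.11, FDR 0.0034) with siTAZ #2. MCM2 was at 101 and 111 CPM with siNTC, 106 and 79.7 with siTAZ #1, and 59.1 and 69.5 with siTAZ #2. MCM6 was at 119 and 134 CPM, then 118 and 106, then 80.3 and 82, in the same order. MCM7, the most abundant per length of the 6 (104 CPM per kb of transcript with siNTC, against 31 to 60.9 for the others), was at 244 and 268 CPM, then 290 and 255, then 162 and 156. In these genes too, no siTAZ #2 library reached any library of the other groups. MCM2 fell by 0.73 (FDR 0.024), MCM6 by 0.64 (FDR 0.0068) and MCM7 by 0.69 (FDR 0.0052) with siTAZ #2. MCM7 overlaps AP4M1 and a cluster of microRNA genes, and the strand setting of the counting is not given in the sources used here.

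Between the siRNAs, MCM3, MCM4, MCM5, MCM6 and MCM7 were higher with siTAZ #1, with log2 differences from 0.47 (MCM6, FDR 0.019) to 1.12 (MCM3, FDR 0.0014). MCM2 was 0.53 higher without passing the test (FDR 0.059), and the differences in MCM5 and MCM6 were lost when either siTAZ #2 library was left out (FDR up to 0.073 and 0.093). The falls of MCM3, MCM4 and MCM5 with siTAZ #2 passed the test whichever library was left out. Those of MCM6 and MCM7 did not without siNTC replicate 2, and that of MCM2 did not without any one of the siNTC or siTAZ #2 libraries. Without the genes of the stretch with missing counts, and with all 6 libraries, these falls passed. Their FDRs were then 0.00052 (MCM6), 0.00019 (MCM7) and 0.0012 (MCM2).

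**Figure D2:**
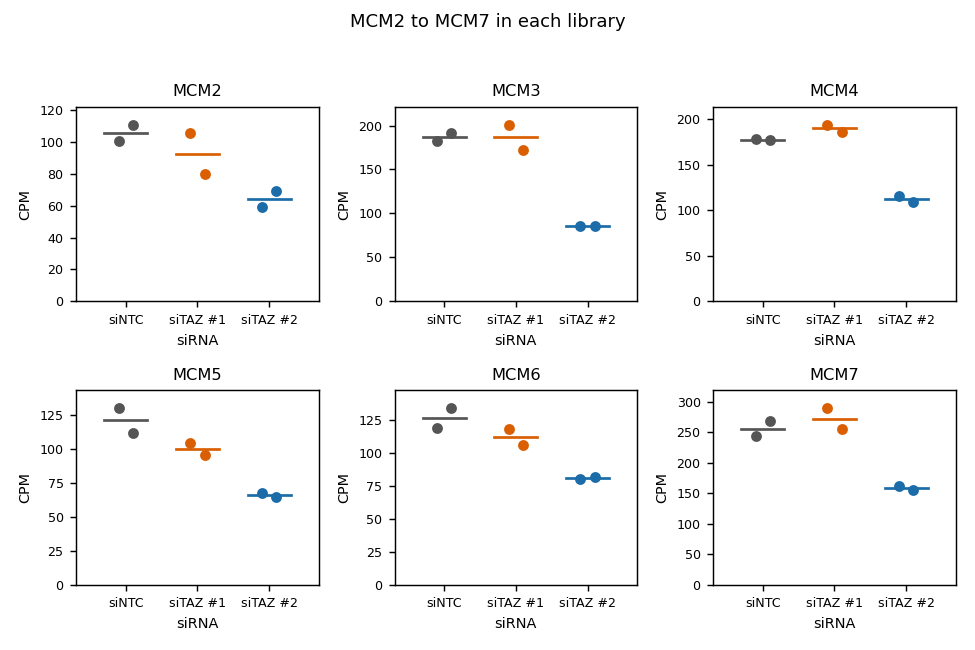
Levels (CPM, axis from 0) of MCM2 to MCM7 in each library, with a point per library and a bar at the mean of each group (siNTC gray, siTAZ #1 orange, siTAZ #2 blue). In each panel both siTAZ #2 points lie below the points of the other groups. The siNTC and siTAZ #1 points overlap in MCM2, MCM3 and MCM7. In MCM4 the siTAZ #1 points lie above the siNTC points, and in MCM5 and MCM6 below them. In MCM2, siTAZ #1 replicate 2 (79.7 CPM) lies below both siNTC points.

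The factors that load and activate the helicase were the group with the lowest median with siTAZ #2 (-0.89), and 6 of the 7 fell. CDC6, which with CDT1 brings the MCM ring to origins, was at 46.8 and 49 CPM with siNTC, 60.3 and 62.4 with siTAZ #1, and 26.5 and 23.7 with siTAZ #2. The groups did not overlap. CDC6 fell by 0.93 with siTAZ #2 (SE 0.12, FDR 0.0038), was 0.36 higher with siTAZ #1 without passing the test (FDR 0.084), and differed between the siRNAs by 1.29 (SE 0.12, FDR 0.0016). CDT1 itself was not called with siTAZ #2 (-0.29, FDR 0.29) or siTAZ #1 (0.49, FDR 0.11), but was higher with siTAZ #1 than with siTAZ #2 (0.77, FDR 0.026).

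GMNN encodes geminin, the inhibitor of CDT1 that blocks a second round of loading, and was looked at in each library after its values were seen. It was at 34.5 and 33.6 CPM with siNTC, 40.2 and 57.9 with siTAZ #1, and 15.5 and 13.3 with siTAZ #2. The groups did not overlap, though the siTAZ #1 libraries were far apart. GMNN fell by 1.24 with siTAZ #2 (SE 0.20, FDR 0.0082), and of the 47 genes it differed most between the siRNAs, by 1.76 (SE 0.20, FDR 0.0028). With siTAZ #1 it was at 0.53 without passing the test (FDR 0.12). It passed in the fit without the genes of the stretch with missing counts (FDR 0.035). MCM10, which helps to activate the loaded helicase, fell by 1.14 (SE 0.16, FDR 0.005) with siTAZ #2 and differed between the siRNAs by 1.45 (FDR 0.0025). CDC45, which joins MCM and GINS in the active helicase, fell by 0.66 (FDR 0.032) with siTAZ #2 and differed between the siRNAs by 0.93 (FDR 0.01). This last difference and that in CDT1 were lost when either siTAZ #2 library was left out (FDR up to 0.065 and 0.13).

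GINS1 and GINS2 are subunits of the same complex. They moved apart with siTAZ #1, while both fell with siTAZ #2. GINS1 was at 17.8 and 19.8 CPM with siNTC, 28.3 and 27 with siTAZ #1, and 13.8 and 12.3 with siTAZ #2. GINS2 was at 27.5 and 24.6 CPM with siNTC, 11.9 and 10.1 with siTAZ #1, and 16.6 and 11.4 with siTAZ #2. So all libraries of either TAZ siRNA were below siNTC in GINS2, and the siTAZ #1 libraries were on opposite sides of siNTC in the 2 genes. GINS1 rose by 0.56 with siTAZ #1 (SE 0.15, FDR 0.047) and fell by 0.52 with siTAZ #2 (SE 0.15, FDR 0.047), both near the threshold. GINS2 fell by 1.24 with siTAZ #1 (SE 0.23, FDR 0.016) and by 0.89 with siTAZ #2 (SE 0.23, FDR 0.034), and the siRNAs did not differ by the test (-0.35, SE 0.23, FDR 0.31). GINS1 overlaps NINL and GINS2 overlaps KIAA0182, each on the opposite strand.

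In this group, the falls of CDC6 and MCM10 with siTAZ #2 passed the test whichever library was left out. The fall of GMNN was lost without siNTC replicate 1, siNTC replicate 2 or siTAZ #2 replicate 2 (FDR up to 0.06), as was that of GINS2 (FDR up to 0.16), and those of CDC45 and GINS1 without any one of the siNTC or siTAZ #2 libraries (FDR up to 0.16 and 0.2). With siTAZ #1, the fall of GINS2 was lost without either siNTC library (FDR up to 0.11), and the rise of GINS1 was lost without any one library other than siTAZ #1 replicate 2 (FDR up to 0.23).

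At the fork, FEN1 was the gene of the 9 that fell with siTAZ #2, and the median of the 9 was -0.34. FEN1, the nuclease that trims the flaps of Okazaki fragments, was at 82 and 72.1 CPM with siNTC, 87.2 and 92.5 with siTAZ #1, and 43.9 and 41 with siTAZ #2. The siTAZ #2 libraries stood apart from the other 4. FEN1 fell by 0.86 (SE 0.11, FDR 0.0038), whichever library was left out, and differed between the siRNAs by 1.08 (FDR 0.002). Its span overlaps that of FADS2 on the same strand and it has a named pseudogene. Whether reads of FEN1 are shared with these is not known.

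PCNA, the sliding clamp that holds polymerases on the DNA, was at 135 and 144 CPM with siNTC, 193 and 199 with siTAZ #1, and 123 and 114 with siTAZ #2. The groups did not overlap, and the siTAZ #1 libraries were the high ones. PCNA rose by 0.49 with siTAZ #1 (SE 0.08, FDR 0.013), was 0.24 lower with siTAZ #2 without passing the test (FDR 0.084), and differed between the siRNAs by 0.73 (FDR 0.0028). POLD3, an accessory subunit of DNA polymerase delta, also rose with siTAZ #1 (0.49, SE 0.11, FDR 0.029) and was at -0.34 with siTAZ #2 (FDR 0.066). Without either siNTC library, the rises of PCNA (FDR up to 0.12) and POLD3 (FDR up to 0.18) were lost, and that of POLD3 was also lost without either siTAZ #2 library.

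None of the other fork genes was called against siNTC in the fit with all genes. Without the genes of the stretch with missing counts, RFC2 (FDR 0.0087) and RFC4 (FDR 0.032) fell with siTAZ #2. With siTAZ #2, the primase subunit PRIM1 was at -0.41, the clamp loader subunits RFC2, RFC3 and RFC4 at -0.69, -0.33 and -0.55, DSCC1 of an alternative clamp loader at -0.34, and the single-strand binding protein RPA2 at -0.17 on the log2 scale. With siTAZ #1 they were at 0.76, 0.18, 0.48, 0.15, 0.19 and -0.07, in the same order. Between the siRNAs, PRIM1 (1.17, FDR 0.0498), RFC2 (0.87, FDR 0.032) and RFC4 (0.70, FDR 0.041) were higher with siTAZ #1. RFC3 (0.81, FDR 0.0503), DSCC1 (0.53) and RPA2 (0.10) were not called, but RFC3 passed without the genes of that stretch (FDR 0.0059). The difference in PRIM1 was lost without siNTC replicate 1, siNTC replicate 2 or siTAZ #2 replicate 2, and those in RFC2 and RFC4 without any one siNTC or siTAZ #2 library (FDR up to 0.18).

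All 3 enzymes of nucleotide supply fell with siTAZ #2. RRM2, the subunit of ribonucleotide reductase whose level changes through the cell cycle, was at 164 and 167 CPM with siNTC, 205 and 194 with siTAZ #1, and 108 and 99.8 with siTAZ #2. TYMS, thymidylate synthase, was at 190 and 216 CPM with siNTC, 242 and 240 with siTAZ #1, and 132 and 139 with siTAZ #2. In both genes the groups did not overlap and were in the order siTAZ #2, siNTC, siTAZ #1. RRM2 fell by 0.67 (SE 0.08, FDR 0.0032), TYMS by 0.58 (SE 0.09, FDR 0.007) and RRM1, the larger subunit, by 0.49 (SE 0.09, FDR 0.01) with siTAZ #2. With siTAZ #1 their log2 fold changes of 0.27, 0.25 and 0.09 were not called. The differences between the siRNAs were 0.94, 0.83 and 0.59, each past the threshold with any one library left out, though edgeR's exact test on the 4 libraries did not call that of RRM1. Against siNTC, the fall of TYMS was lost without siNTC replicate 2 or siTAZ #2 replicate 1 (FDR up to 0.057), and that of RRM1 without siNTC replicate 1 or either siTAZ #2 library (FDR up to 0.076). TYMS overlaps ENOSF1 on the opposite strand, and both TYMS and RRM2 have named pseudogenes.

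Of the 9 chromatin genes, 3 fell with siTAZ #2 and the median was -0.34. CDCA7 fell by 0.91 (SE 0.23, FDR 0.034) and its partner HELLS, a remodeler needed for DNA methylation, by 0.71 (SE 0.19, FDR 0.037). SLBP, which binds the stem loop of histone mRNAs, fell by 0.34 (SE 0.09, FDR 0.044). Each of these 3 calls was lost without any one siNTC or siTAZ #2 library (FDR up to 0.2). CHAF1A and CHAF1B, which deposit histones behind the fork, were at -0.44 and -0.30, the histone chaperone NASP at -0.49, and the bromodomain ATPase ATAD2 at -0.29 with siTAZ #2, none of them called. With siTAZ #1, CHAF1A, CHAF1B, NASP and ATAD2 were at 0.17, -0.01, 0.39 and 0.32 and CDCA7, HELLS and SLBP at -0.43, -0.19 and 0.18, none of them called. Without the genes of the stretch with missing counts, NASP (FDR 0.0086) and CHAF1A (FDR 0.03) fell with siTAZ #2. In that fit NASP also rose with siTAZ #1 (FDR 0.041).

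MLF1IP, the centromere protein also known as CENPU, was at 30.7 and 33 CPM with siNTC, 43.1 and 50.5 with siTAZ #1, and 25.6 and 26.3 with siTAZ #2. The groups did not overlap. It rose with siTAZ #1 (0.55, SE 0.13, FDR 0.034), was at -0.30 with siTAZ #2 (FDR 0.14), and differed between the siRNAs by 0.85 (FDR 0.0067). Its rise was lost without any one library other than siTAZ #1 replicate 1 (FDR up to 0.2).

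UHRF1, which brings the maintenance methyltransferase to newly copied DNA, was at 129 and 154 CPM with siNTC, 136 and 128 with siTAZ #1, and 136 and 133 with siTAZ #2. The groups overlapped. Its log2 fold changes were -0.10 (SE 0.11) with siTAZ #1 and -0.07 (SE 0.11) with siTAZ #2, and -0.03 (SE 0.11) between the siRNAs, none of them called. NASP (0.89), ATAD2 (0.61), CHAF1A (0.61) and SLBP (0.51) were higher with siTAZ #1 than with siTAZ #2, as was MLF1IP, while HELLS (0.52, FDR 0.088), CDCA7 (0.48, FDR 0.18) and CHAF1B (0.29, FDR 0.21) were not called. The difference in NASP was lost without siTAZ #2 replicate 2, those in ATAD2 and SLBP without either siTAZ #2 library, and that in CHAF1A without any one library other than siTAZ #1 replicate 1.

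**Figure D3:**
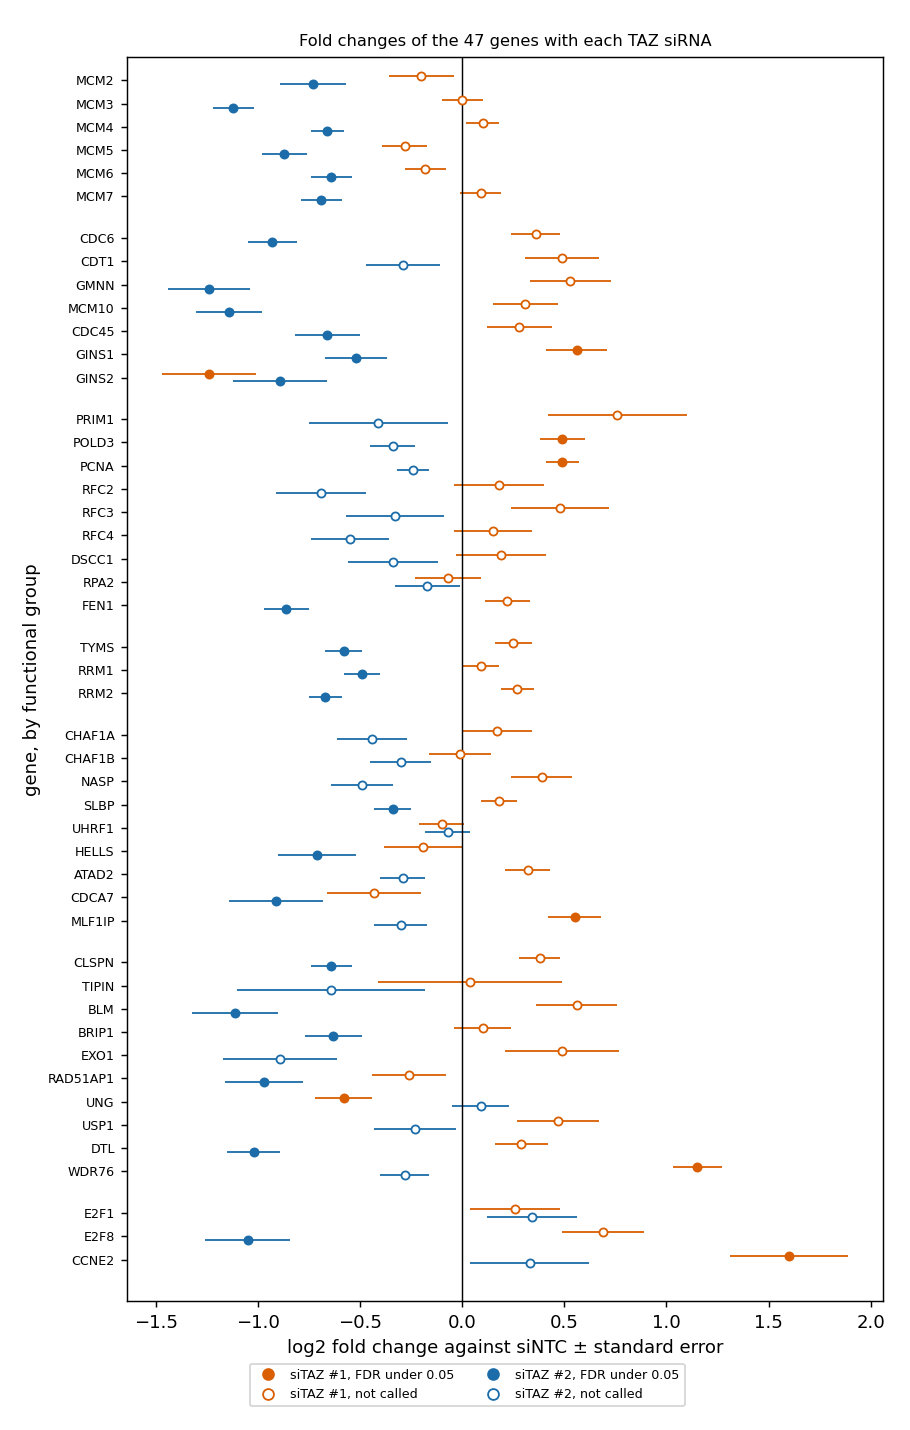
Log2 fold change against siNTC with its standard error for each of the 47 genes, by functional group, with siTAZ #1 in orange and siTAZ #2 in blue and filled points for an FDR under 0.05. The blue points lie mostly left of 0 with 25 filled, and 36 of the orange points lie right of 0 with 6 of them filled.

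Of the 10 checkpoint and repair genes, 5 fell with siTAZ #2 (median -0.64). CLSPN, claspin, which passes the signal of stalled forks on to the checkpoint kinase, was at 65.4 and 61.3 CPM with siNTC, 79 and 86.2 with siTAZ #1, and 39.9 and 41.6 with siTAZ #2. The groups did not overlap. CLSPN fell by 0.64 with siTAZ #2 (SE 0.10, FDR 0.0083), was at 0.38 with siTAZ #1 just outside the threshold (FDR 0.051), and differed by 1.02 between the siRNAs (FDR 0.0021). It rose with siTAZ #1 in the fit without the genes of the stretch with missing counts (FDR 0.031). The helicases BLM and BRIP1 fell by 1.11 (SE 0.21, FDR 0.013) and 0.63 (SE 0.14, FDR 0.021) with siTAZ #2. RAD51AP1, a DNA repair protein, fell by 0.97 (SE 0.19, FDR 0.014). DTL, the adaptor through which CDT1 is destroyed in S phase, fell by 1.02 (SE 0.13, FDR 0.0038), and this was the one fall of the 5 that passed the test whichever library was left out. The fall of CLSPN was lost without either siNTC library or siTAZ #2 replicate 1 (FDR up to 0.065), that of RAD51AP1 without either siNTC library or siTAZ #2 replicate 2 (FDR up to 0.081), and those of BLM and BRIP1 without any one siNTC or siTAZ #2 library (FDR up to 0.08 and 0.11).

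WDR76, a WD repeat protein that is found at DNA damage, was at 19.9 and 21.3 CPM with siNTC, 44.1 and 47.3 with siTAZ #1, and 16.8 and 17.1 with siTAZ #2. Both siTAZ #1 libraries were far above the other 4. WDR76 rose by 1.15 (SE 0.12, FDR 0.0033), a fold of 2.22, and of the 6 rises with siTAZ #1 this was the one that passed the test whichever library was left out (FDR up to 0.048). With siTAZ #2 it was at -0.28 (FDR 0.14).

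UNG, the glycosylase that removes uracil from DNA, went against its group. It was at 41.7 and 41.7 CPM with siNTC, 24.8 and 30.8 with siTAZ #1, and 45.7 and 43 with siTAZ #2. Both siTAZ #1 libraries were the low ones. UNG fell by 0.58 with siTAZ #1 (SE 0.14, FDR 0.039), was at 0.09 with siTAZ #2 (FDR 0.68), and was lower with siTAZ #1 than with siTAZ #2 (-0.67, SE 0.14, FDR 0.019). Both calls were lost without any one siNTC or siTAZ #2 library (FDR up to 0.17 and 0.094).

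The other 3 genes of the group were called with neither siRNA in the fit with all genes. Without the genes of the stretch with missing counts, EXO1 fell with siTAZ #2 (FDR 0.0072) and USP1 rose with siTAZ #1 (FDR 0.043). The nuclease EXO1 was at 0.49 with siTAZ #1 and -0.89 with siTAZ #2 (FDR 0.064), USP1, which removes ubiquitin from PCNA, at 0.47 and -0.23, and TIPIN, a fork protection protein, at 0.04 and -0.64 with the largest SE of the 47 genes (0.45 and 0.46). With siTAZ #1, CLSPN, BLM, BRIP1, RAD51AP1 and DTL were not called, and BLM, BRIP1, RAD51AP1 and DTL were at 0.56, 0.10, -0.26 and 0.29. Higher with siTAZ #1 than with siTAZ #2 were BLM (1.67), WDR76 (1.43), EXO1 (1.38), DTL (1.30), CLSPN (1.02), BRIP1 (0.72), RAD51AP1 (0.71) and USP1 (0.70), and TIPIN was not called (0.68, FDR 0.32). The differences in BLM, WDR76, EXO1, DTL and CLSPN passed the test whichever library was left out, that in BRIP1 was lost without siTAZ #2 replicate 2, and those in RAD51AP1 and USP1 were lost without any one of 5 libraries.

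The regulators split. E2F8, a repressor that is itself made in S phase, was at 7.92 and 8.71 CPM with siNTC, 14.7 and 12.2 with siTAZ #1, and 4.25 and 3.74 with siTAZ #2. E2F1, an activator of S phase genes, was at 22.1 and 17.7 CPM with siNTC, 26.1 and 21.4 with siTAZ #1, and 21.1 and 29.2 with siTAZ #2. The groups did not overlap in E2F8 and overlapped in E2F1. E2F8 fell by 1.05 with siTAZ #2 (SE 0.21, FDR 0.015), was at 0.69 with siTAZ #1 (FDR 0.062), and differed by 1.75 between the siRNAs (SE 0.21, FDR 0.0031). It rose with siTAZ #1 in the fit without the genes of the stretch with missing counts (FDR 0.046). Its fall was lost without any one siNTC or siTAZ #2 library (FDR up to 0.086). E2F1 was called in none of the comparisons, at 0.26 with siTAZ #1 (SE 0.22, FDR 0.46), 0.34 with siTAZ #2 (SE 0.22, FDR 0.3) and -0.08 between them (FDR 0.81).

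CCNE2 encodes cyclin E2, a partner of CDK2 at the entry to S phase, and is given in each library after its values were seen. It was at 4.06 and 4.86 CPM with siNTC, 10.4 and 16.7 with siTAZ #1, and 5.47 and 5.74 with siTAZ #2. Both siTAZ #1 libraries were above all others but differed from each other. CCNE2 rose by 1.60 with siTAZ #1 (SE 0.29, FDR 0.015), a fold of 3.04 and the largest rise of the 47, and was at 0.33 with siTAZ #2 (SE 0.29, FDR 0.43). It was higher with siTAZ #1 than with siTAZ #2 by 1.27 (SE 0.28, FDR 0.021). The rise was lost without either siNTC library (FDR up to 0.11) and the difference without either siTAZ #2 library (FDR up to 0.11).

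**Figure D4:**
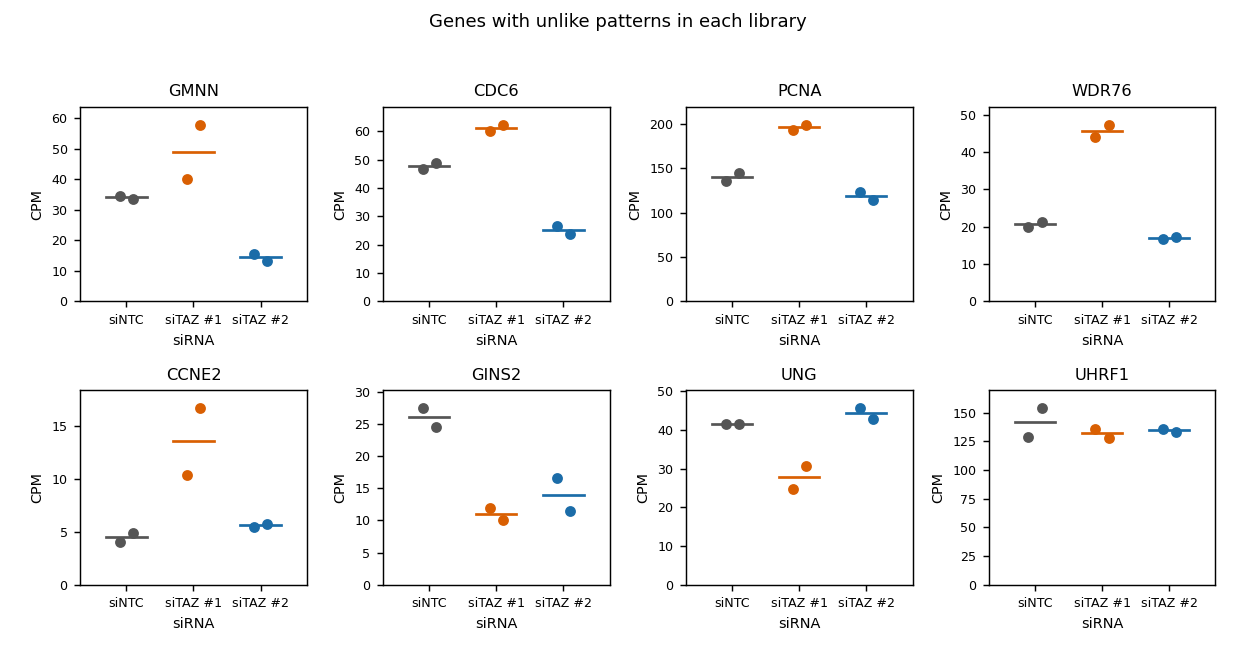
Levels (CPM, axes from 0) of 8 genes with unlike patterns, with a point per library and a bar at the mean of each group. GMNN and CDC6 are low with siTAZ #2, PCNA, WDR76 and CCNE2 high with siTAZ #1, GINS2 low with both siRNAs, UNG low with siTAZ #1, and the groups overlap in UHRF1.

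A further list of 56 replication genes outside the 47, all of which were tested, was read in the same fits. With siTAZ #2, 24 of the 56 fell and 1 rose, beside 14.4% and 14.1% of all genes, with a median of -0.40. With siTAZ #1, 2 fell (RFC1 and ASF1A) and 6 rose, beside 9.78% and 10.8% of all genes, with a median of 0.03. CDK2, the kinase that drives S phase, was at 98.5 and 95 CPM with siNTC, 93.6 and 97.8 with siTAZ #1, and 37 and 42.4 with siTAZ #2, and fell by 1.28 with siTAZ #2 (SE 0.10, FDR 0.0011). SUPT16H, of the histone chaperone FACT, fell by 0.94 (SE 0.10, FDR 0.002). RFC5, a clamp loader subunit like RFC2, RFC3 and RFC4, was the gene that rose with siTAZ #2 (1.11, SE 0.14, FDR 0.0034), and it rose with siTAZ #1 too (1.36, SE 0.14, FDR 0.0029). E2F7, a repressor close to E2F8, rose by 0.47 with siTAZ #1 (FDR 0.032) and fell by 0.70 with siTAZ #2 (FDR 0.0071). E2F2 fell by 1.92 with siTAZ #2 (FDR 0.005) and was at 0.47 with siTAZ #1 (FDR 0.24). E2F3 rose by 1.15 with siTAZ #1 (FDR 0.0055) and was at 0.45 with siTAZ #2 (FDR 0.068). Between the siRNAs, 24 of the 56 were higher with siTAZ #1 and 4 lower (ORC2, POLD4, RFC1 and ASF1A), beside 15.2% and 13.4% of all genes. The count of 24 that fell with siTAZ #2 dropped to 7 or 5 when siNTC replicate 1 or 2 was left out and to 11 or 8 when siTAZ #2 replicate 1 or 2 was, and the count of 24 between the siRNAs to 14 without siTAZ #2 replicate 2. The 4 that were lower with siTAZ #1 than with siTAZ #2 dropped to 2 without either siNTC library and to 1 without either siTAZ #2 library. The rises with siTAZ #2 went from 1 to 4 without either siTAZ #1 library. With siTAZ #1, leaving out a library gave 0 to 8 falls and 1 to 10 rises. POLA1 lies in the stretch with missing counts.

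The 54 genes of Seurat's G2M list, which is meant to mark the next stage of the cycle, were read in the same fits. With siTAZ #2, 38 of the 54 fell and 1 (LBR) rose, beside 14.4% and 14.1% of all genes, with a median of -0.88. With siTAZ #1, 3 fell (TOP2A, AURKA and CBX5) and 8 rose, beside 9.78% and 10.8% of all genes, with a median of 0.14. Summed over the 52 outside the stretch with missing counts, their level was 6086 and 6190 CPM with siNTC, 6412 and 7087 with siTAZ #1, and 3629 and 3380 with siTAZ #2. Between the siRNAs 43 were higher with siTAZ #1 and 1 (CBX5) lower, beside 15.2% and 13.4% of all genes. With siTAZ #1, leaving out a library gave 1 to 6 falls and 1 to 17 rises. Without siTAZ #1 replicate 1 or 2, the genes lower with siTAZ #1 than with siTAZ #2 went from 1 to 3 or 2, and the rises with siTAZ #2 from 1 to 2. The order of the groups was that seen in the sum over the 47 replication genes. The part of the share of cycling cells in these values was not tested.

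Of the 38 promoters, 19 (50%) held an E2F site, counted as TTTCCCGC, TTTCGCGC, TTTGGCGC or TTTGCCGC on either strand, as against 908 of the 27305 RefSeq promoters of the same length (3.33%). CCAAT, the box bound by the factor NF-Y, was found on either strand in 26 of the 38 (68.4%, against 35.7% of all promoters), and the CHR forms TTTGAA or TTTAAA, common in genes of later cell cycle stages, in 5 (13.2%, against 24.3%). With siTAZ #2, 12 of the 19 genes with an E2F site fell (median -0.64) and 10 of the 19 without one fell (median -0.63). With siTAZ #1, 1 of the 19 with a site fell and 3 rose (median 0.26), and 1 of the 19 without a site fell and 0 rose (median 0.18). Between the siRNAs, 12 of the 19 with a site were higher with siTAZ #1 and 0 lower (median 0.78). Of the 19 without a site, 16 were higher and 1 lower (median 0.72). Genes without a match include GMNN, MCM10, FEN1, RRM2 and BLM, all of which fell with siTAZ #2, and genes with a match include UHRF1 and E2F1, which were called with neither. A match describes these letters only, and binding was not measured. The RefSeq promoters set beside the 38 were not limited to the genes tested here or matched in base content.

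**Figure D5:**
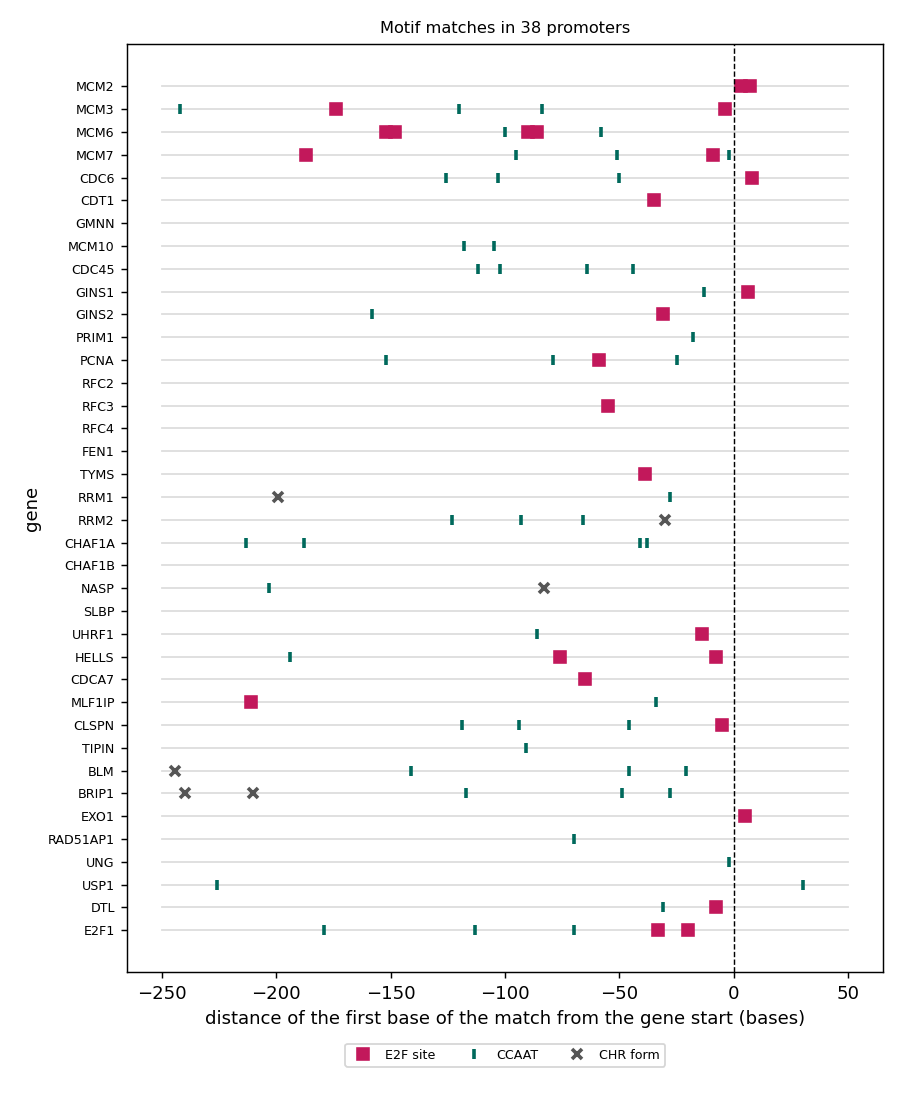
Position of E2F sites (squares), CCAAT boxes (bars) and CHR forms (crosses) in the 38 promoters, as distance in bases of the first base of the match from the start of the gene. The E2F sites of the 19 promoters that hold one lie at distances from -211 (MLF1IP) to 8 (CDC6).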

How the data were processed

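RNA sequencing of HFL-1 cells with siNTC, siTAZ #1 or siTAZ #2 was analysed in 6 libraries, grouped by their labels. The table that the authors deposited holds raw counts per gene. Their Ion Proton reads had been mapped to hg19 by TMAP and assigned to genes by HTSeq 0.6.1, and nothing was normalized. The strand setting is not given in the sources used here. Of the 47 genes, 17 overlap another listed gene by the whole span of the gene, small RNA genes included, and 11 have a named pseudogene. Overlap of exons was not computed, so whether any reads are shared is not known. Of the deposited entries, 13 that carry a date in place of a symbol (0.0458% to 0.0506% of the counts of a library) were left out. No deposited column was left unmapped to a sample.

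Genes were filtered by group with filterByExpr, scaled by TMM and fitted over all 6 libraries at once with edgeR 4.0.16 in R 4.3.3, whose quasi-likelihood F test gave the p-values. Benjamini-Hochberg adjustment ran over the 14053 genes tested, with a threshold of FDR 0.05. The SE of a log2 fold change is its size over the square root of F. The steps were also run on simulated counts, which had no missing stretch and a smaller spread than the common dispersion of these data. That run therefore does not measure the error of the calls given here. With 2 libraries per group, the spread is shared across groups and genes.

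The alternatives were RLE and library-total scaling, no filter, DESeq2 1.42.0, edgeR's exact test on 4 libraries, a replicate block, an offset for GC content (known for 94.7% of the genes tested), a fit without the genes of the stretch with missing counts, and leaving out each library in turn, in which case the lone library of a group is assumed to vary like the others. Positions and transcript lengths are from GENCODE on GRCh37. The 47 genes, the other lists (with Seurat 5.3.0) and the tests were chosen with earlier results of these data known. Every one of the 47 is named, and values in all libraries are given for MCM2 to MCM7 and, in each other group, for the gene with the lowest FDR between the siRNAs, the gene with the highest mean CPM and any gene called against most of its group. Of the other replication genes, those with the 3 lowest FDRs with siTAZ #2 and those called against most are named. E2F2, E2F3, E2F7 and POLA1 are named outside this rule.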

Additional observations from a re-analysis of the deposited data

Results flagged for a closer look

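The effects of the 2 siRNAs on a gene were held to differ where edgeR's direct test of siTAZ #1 against siTAZ #2 gave an FDR under 0.05. This was so for 36 of the 47 genes, with FDRs from 0.0013 to 0.0498. The values are log2 differences, positive where the level was higher with siTAZ #1, and their causes were not tested. In the helicase, the differences were 1.12 (MCM3), 0.76 (MCM4), 0.59 (MCM5), 0.47 (MCM6) and 0.78 (MCM7). Among the loading and activation factors they were 1.29 (CDC6), 0.77 (CDT1), 1.76 (GMNN), 1.45 (MCM10), 0.93 (CDC45) and 1.08 (GINS1). At the fork they came to 1.17 (PRIM1), 0.83 (POLD3), 0.73 (PCNA), 0.87 (RFC2), 0.70 (RFC4) and 1.08 (FEN1). For nucleotide supply they were 0.83 (TYMS), 0.59 (RRM1) and 0.94 (RRM2). Chromatin genes differed by 0.61 (CHAF1A), 0.89 (NASP), 0.51 (SLBP), 0.61 (ATAD2) and 0.85 (MLF1IP). For checkpoint and repair the differences were 1.02 (CLSPN), 1.67 (BLM), 0.72 (BRIP1), 1.38 (EXO1), 0.71 (RAD51AP1), -0.67 (UNG), 0.70 (USP1), 1.30 (DTL) and 1.43 (WDR76). The regulators differed by 1.75 (E2F8) and 1.27 (CCNE2).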

How the results depend on the processing

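Over all alternatives, between 0 and 4 of the 47 genes fell with siTAZ #1 and between 1 and 12 rose, so these counts are the least certain, while with siTAZ #2 none of the alternatives called a rise. With siTAZ #1, the fallen genes were 2 and became 1 with library totals, the exact test, the replicate block and the GC offset, and 0 to 4 with a library left out. The risen were 6 and became 3 without a filter, 10 with DESeq2, 2 by the exact test, 3 with the replicate block and 11 without the genes of the stretch with missing counts, and 1 to 12 with a library left out. The median (0.25) then ranged from 0.19 to 0.30. The 25 fallen with siTAZ #2 became 30 with DESeq2, 32 by the exact test and 30 without the genes of that stretch. They became 22 with library totals, 23 without a filter, 18 with the replicate block and 26 with the GC offset. With siTAZ #2, the 25 fallen ranged from 9 to 31 with a library left out, and the median (-0.63) from -0.63 to -0.56, with -0.58 under library totals and under the GC offset. Between the siRNAs, 35 higher became 15 by the exact test and 20 to 39 with a library left out, the 1 lower became 0 by the exact test and 0 to 1 with a library left out, and the median (0.77) ranged from 0.72 to 0.83. DESeq2 gave 38 higher between the siRNAs. The causes were not tested.

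Directions turned in uncalled genes. With siTAZ #1, MCM3 (0.001) turned to -0.004 with RLE, -0.02 without a filter, -0.005 with DESeq2, -0.01 by the exact test, -0.001 with the replicate block and -0.02 without the genes of that stretch. CHAF1B turned to 0.03 with library totals and with the GC offset, TIPIN to -0.09 and BRIP1 to -0.10 with the GC offset. Between the siRNAs, UHRF1 turned to 0.10 and E2F1 to 0.19 with the GC offset. With a library left out, the ranges with siTAZ #1 were -0.12 to 0.11 for MCM3, -0.01 to 0.18 for MCM7, -0.13 to 0.43 for RFC2, -0.03 to 0.33 for RFC4, -0.04 to 0.39 for DSCC1, -0.23 to 0.08 for RPA2, -0.02 to 0.34 for CHAF1A, -0.08 to 0.06 for CHAF1B, -0.23 to 0.03 for UHRF1 and -0.75 to 0.53 for TIPIN. They were -0.22 to 0.04 for UHRF1 with siTAZ #2, and between the siRNAs -0.0005 to 0.20 for RPA2, -0.07 to 0.02 for UHRF1, -0.11 to 1.17 for TIPIN and -0.30 to 0.18 for E2F1.

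The replicate numbers of the labels were used as a block for comparison only, since same-numbered libraries did not deviate together (correlations over all genes of -0.00677, 0.0102 and -0.184), and the numbers do not otherwise pair them. With the replicate block 18 genes fell with siTAZ #2 and 28 were higher with siTAZ #1 than with siTAZ #2. The share of all genes called is given only for the fit with all genes and the fit without the genes of the stretch with missing counts. Counts from the other alternatives stand without it, and whether they moved more than those of all genes was not tested.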
